A study of Mus musculus with 161 samples.

Results

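Fragment pairs with a CTCF peak at both ends were chosen from position alone. Each primer of the 5C design (chromosome-conformation capture carbon copy, which counts ligation products between a fragment with a forward primer, FOR, and one with a reverse primer, REV) marks 1 restriction fragment of the region around Xist and Tsix on the mouse X chromosome (mm9). A pair was a member where both fragments overlapped a peak of the deposited FLAG list, which was made in the Full-length transgene line after 2 days of auxin and doxycycline, and their midpoints lay 100 kb to 1 Mb apart. This gave 179 members of 244944 primer pairs, or of the 82345 pairs in that range of distance. Of the 179, 156 had a balanced value in all 91 5C libraries and were analysed. The other 23 involve 4 peak fragments without a balanced value in any library. Controls were the 64949 measured pairs without a peak in either fragment, taken in steps of 20 kb of distance (1200 to 1792 pairs per step). The members join 51 peak fragments (29 FOR and 22 REV), which are 310 to 20164 bases long and hold up to 4 peaks each. Their median length was 4982 bases, against 1997 for all fragments of the design. Controls were matched on distance and not on fragment length. Members that share a fragment, or a peak split between 2 neighbouring fragments (4 peaks), are not independent of each other.

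CTCF is a zinc finger protein that binds a long, asymmetric DNA motif. Cohesin, a ring-shaped complex thought to extrude chromatin loops, is halted at bound CTCF, and the loops seen in mammalian genomes join mostly pairs of sites whose motifs point towards each other (convergent). In such maps a loop appears as a focal excess of contacts between its anchors over the contacts of other loci at equal distance.

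The motif letters of the anchors on which the results turn are shown here because their strand sets the orientation of a pair. Each peak was searched on both strands for CCANNAG directly followed by NNGGC, which has 8 fixed letters in 12 positions. The exact letters stood in 31 of 78 peaks of the 5C region (39.7%), in 488 of 1128 peaks of the X chromosome (43.3%) and in 323 of 22955 windows of 200 bases of the 5C region (1.41%). In fragments without them, a match with 1 fixed letter changed was taken within 50 bases of the centre of a peak, a choice made after the values had been seen. Exact or changed letters stood in 79.5% of the 78 peaks and in 7.89% of the windows. In 20 of 22 peaks with 1 exact match and in 13 of 19 with 1 changed match, the 12 letters lay at 1 and the same offset from the peak's centre. The sites below are 20 bases of mm9, 5′ to 3′ on the strand of the motif, with the 12 letters in capitals.
REV_520, peak split with FOR_519, plus strand, exact: gtgaCCACTAGATGGCggta
FOR_546, minus strand, exact: taggCCAGAAGAGGGCacca
FOR_577, minus strand, exact: aagtCCACAAGATGGCgata
REV_576, minus strand, 1 letter changed: ttggTCACTAGGTGGCagta
FOR_168, plus strand, exact: tagtCCAGCAGAGGGCactg
REV_252, minus strand, 1 letter changed: gagaCCACTAGAGGGAgcgc
FOR_1216, plus strand, 1 letter changed: cttgTCACAAGGTGGCactg
REV_1464, minus strand, exact: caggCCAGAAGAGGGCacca
REV_1521, minus strand, 1 letter changed: atgaCCAGCAGGTGGAggtg
FOR_122, plus strand, exact: aaagCCAGAAGAGGGCacca
REV_40, minus strand, exact: gctgCCAGCAGAGGGCactg

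By GENCODE annotation of mm9, the peak split between FOR_519 and REV_520 (chrX:100455304-100455503) lies in an intron of 4930519F16Rik. Its printed site lies within REV_520, while FOR_519 holds the first 20 bases of the peak and was given the strand of the whole peak. The peak of FOR_546 (chrX:100567076-100567275) lies in an intron of Chic1. Those of FOR_577 (chrX:100639186-100639385) and REV_576 (chrX:100636248-100636447) lie in introns of Tsix, the antisense transcript that represses Xist. The peak of REV_252 (chrX:99674366-99674565) lies in an intron of Hdac8, which encodes a deacetylase of the cohesin subunit SMC3. Those of FOR_1216 (chrX:102462382-102462581), REV_1464 (chrX:103208673-103208872) and REV_1521 (chrX:103366500-103366699) are intergenic, the second 1428 bases from Magt1. FOR_168 holds 4 intergenic peaks. Its printed site belongs to chrX:99414572-99414771, and no peak of the fragment had letters on the minus strand. The printed site of FOR_122 (chrX:99254823-99255022) lies in an intron of Nhsl2. The fragment has a second peak (chrX:99261600-99261799) without exact letters and with a changed match on the minus strand, which was not used. The printed site of REV_40 (chrX:98986984-98987183) lies in an intron of Gm4779.

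All libraries came from male mouse embryonic stem cells of line E14Tg2a or clones of it. In cells of the transgene lines, the endogenous protein carries AID, a degron that acts with Tir1, and was degraded by 4 days of auxin, while doxycycline (dox) induced a CTCF cDNA from a TetO promoter at the Tigre locus through Rtta3G. The reference was the line with Full-length CTCF (14 libraries). Compared with it were the same line on auxin alone (Full-length without dox, 2 libraries), a second line named Full-length_low_expression (2) and 20 mutant lines. Among these were Del_1-265, without the whole region before the zinc fingers (2 clones, 6 and 4 libraries), Del_13-33 (2 clones, 6 and 4 libraries), Del_1-31 (2 clones, 2 libraries each) and Y226A-F228A, a pair of substitutions, with its combination del_13-33-Y226A-F228A (2 each). The lines 179-265, 264-288, 89-178, Del_1-88, H288R, Mut_Parylation, N/C-term-swap, Sumoylation_deficient_1 and Sumoylation_deficient_2 had 2 libraries each. By their titles both sumoylation lines carry K74R, the first with Del_576-614 and the second with Del_615-736, so that they also lack a C-terminal stretch. Del_576-614 had 3 libraries, 1 of which is labelled Del_615-736 and was grouped by its cell line, and Del_577-736 and Del_615-736 had 1 each. Untreated cells were WT parental (3), CTCF-AID with Tir1 (4), and 2 clones each of an endogenous deletion of 13-33 in untagged cells (7 libraries) and in AID-tagged cells with Tir1 (8). Each line is 1 clone, so that line and clone cannot be told apart where a mutant has 1 line. The amount of transgene protein is not among the data used here, so that a change in its amount and a change in its function cannot be told apart. Nothing in the labels says that replicates were separate cultures, and the p-values measure the spread between libraries. The 82 complete count matrices held 3631870 to 23419010 counts, and a member had a median raw count of 38, with 9.76% of all balanced member values at 0.

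The first question was whether fragments that both hold a peak touch more often than distance predicts. For each library, the balanced values of the members were summed and divided by the sum of the mean values of controls in the same distance step (observed over expected), and the log2 of that ratio is called enrichment. In Full-length cells the 156 members had an enrichment of 0.86 ± 0.085 (SD, n = 14 libraries), that is, 1.81 times the contacts of controls. The lowest library was at 0.74, the median at 0.85 and the highest at 1.04. Pairs with a peak in exactly 1 fragment (6041 pairs) had 0.34 ± 0.040 in the same libraries. Whether the greater length of peak fragments adds to these values was not tested. The difference of 0.52 ± 0.061 lay between 0.46 and 0.66 in the 14 libraries, all above 0 (p = 0.000122, two-sided exact sign-flip permutation test, the smallest p that 14 libraries allow). Against controls whose fragments lie within 40 kb of those of the member, a control chosen after seeing the data, the Full-length enrichment was 0.54.

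Members differed widely among themselves. In Full-length cells their mean observed over expected ranged from 0.033 to 8.71 with a median of 1.38, and 108 of 156 were above 1, 38 above 2 and 9 below 0.5. The strong pairs were fixed in other libraries, as the 10% with the highest mean observed over expected in the 7 untreated parental libraries (WT parental and CTCF-AID). These 16 pairs join 23 fragments 105 to 945 kb apart. The last pair inside the limit had 3.89 and the first outside 3.87 in the libraries that chose them. In Full-length cells, which were not used for the choice, the strong pairs carried 28.7% of the summed member signal and had an enrichment of 2.23 ± 0.16 (SD, n = 14; 1.91 to 2.53).

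Contacts between peak fragments were lower than in Full-length cells in 10 of the 20 lines or conditions with at least 2 libraries, and higher in none (two-sided exact permutation tests, with Benjamini-Hochberg adjustment across all 20). In the 2 libraries without dox, enrichment was 0.65 and 0.66, a mean difference from Full-length of -0.20. In the Del_1-265 clones it was 0.64 ± 0.063 (SD, n = 10), from 0.53 to 0.73. The difference was -0.22 in clone 1 (p = 5.16e-05, adjusted p = 0.00103) and -0.22 in clone 2 (p = 0.000654, adjusted p = 0.00654), exact permutation tests. Y226A-F228A had 0.62 and 0.68 (difference -0.21), and del_13-33-Y226A-F228A a mean of 0.68 (difference -0.18). The line 179-265 had the lowest mean of the lines with 2 libraries, at 0.58 and 0.60 (difference -0.27). The remaining lower lines were 264-288 (-0.21), N/C-term-swap (-0.20), Mut_Parylation (-0.17) and H288R (-0.15). In all 10 lower lines every library lay below all 14 Full-length libraries. For the lines with 2 libraries this gave p = 0.0167, the smallest that 2 against 14 allow, and an adjusted p of 0.0333 (exact permutation test). Within runs of consecutive library numbers the 10 differences were -0.24 to -0.074 (H288R the smallest), but with the run as a block only the Del_1-265 clones passed (adjusted p = 0.0106 and 0.0317, exact permutation test), and the other 8 were at the smallest p their runs allow, 0.0952 or 0.333. The count of 10 lines was lower under other settings. It was 0 of 20 with the mean of log2 per pair, 2 of 16 with raw counts and 1 of 20 at 200 to 600 kb.

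The other 10 comparisons did not pass. Full-length_low_expression had 0.82 and 0.85, inside the Full-length range (difference -0.021, p = 0.80, adjusted p = 0.853, exact permutation test). Both Del_13-33 clones overlapped Full-length, with differences of -0.028 in clone 1 and 0.030 in clone 2 (adjusted p = 0.653 for both, exact permutation test). Del_1-88 (-0.10, adjusted p = 0.152) and 89-178 (-0.098, adjusted p = 0.167) were lower on average without passing (exact permutation tests). Del_1-31, Del_576-614 and both sumoylation lines had adjusted p-values from 0.205 to 0.853 (exact permutation tests). Del_577-736, with 1 library, had 0.57, below every Full-length library, but 1 library allows no p under 0.133.

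**Figure D1:**
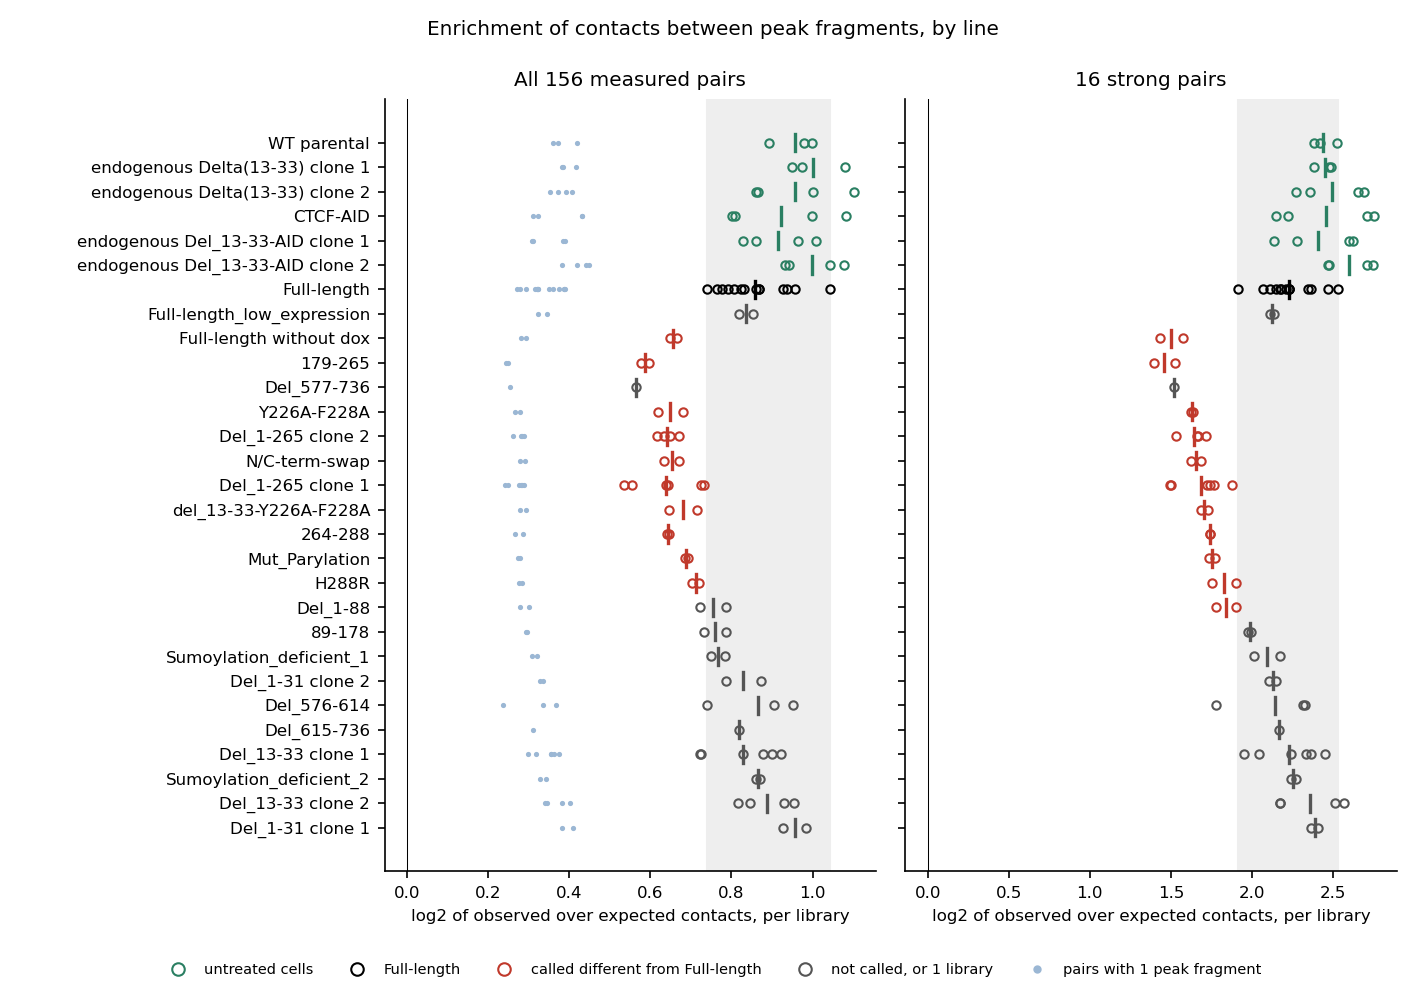
Enrichment (log2 of observed over expected contacts) of the 156 measured peak pairs (left) and of the 16 strong pairs (right), 1 circle per library and a bar at each mean, by line or condition. Grey bands span the 14 Full-length libraries, and the red lines and conditions, 10 on the left and 11 on the right, lie below them throughout, while pairs with 1 peak fragment (blue dots, left) stay lower than member pairs.

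Among the mutants, the 10 Del_13-33 libraries (0.72 to 0.95, median 0.86) lay above the 10 Del_1-265 libraries (0.53 to 0.73, median 0.64) by 0.21 on average (p = 0.0001, adjusted p = 0.0004, permutation test), with a slight overlap. Over the sum of all members, Del_1-265 did not differ detectably from Full-length without dox (difference -0.017, p = 0.667, adjusted p = 0.818, exact permutation test). With 2 libraries without dox this does not show that the groups are equal. Smaller sets of pairs, described below, differed between them in both directions. Y226A-F228A differed from Del_1-265 by 0.0100 (p = 0.818, adjusted p = 0.818, exact permutation test). All 10 Del_1-265 libraries lay below both Full-length_low_expression libraries (difference -0.20), which gave the lowest p this design allows (0.0303) and after adjustment missed the threshold (adjusted p = 0.0606, exact permutation test).

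The differences were larger over the strong pairs. Over the 16 strong pairs, 11 of 20 comparisons passed, all lower: the same 10 and Del_1-88 (difference -0.39). The largest differences were -0.77 in 179-265, -0.73 without dox, -0.60 in Y226A-F228A, -0.58 in Del_1-265 clone 2, -0.57 in N/C-term-swap and -0.55 in Del_1-265 clone 1, with an adjusted p of 0.0303 for lines with 2 libraries (exact permutation test). Within runs the 11 differences were -0.84 to -0.25, and with the run as a block the Del_1-265 clones passed of the 4 lines that could be tested. Strong-pair enrichment was 2.11 and 2.14 in Full-length_low_expression and 2.28 ± 0.20 (SD, n = 10) in Del_13-33, both overlapping Full-length. In the 140 other pairs, a split made after seeing the data, enrichment was 0.54 ± 0.071 in Full-length (n = 14), 0.51 ± 0.011 without dox (n = 2) and 0.44 ± 0.056 in Del_1-265 (n = 10). There no comparison passed (0 of 20, smallest adjusted p = 0.0915, 4 with an unadjusted p under 0.05, exact permutation tests).

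The members were next described by the strands of their motifs. With exact letters at both ends, 6 of the 156 members were convergent, 7 divergent and 10 tandem, and the rest were undetermined. The 6 convergent pairs had an enrichment of 1.72 in Full-length (1.48 to 2.18, median 1.67, n = 14) and 0.55 and 0.61 without dox. It was 1.16 in Del_1-265 (0.97 to 1.56, median 1.10, n = 10), 0.91 and 0.98 in Y226A-F228A, and 1.84 in Del_13-33 (1.35 to 2.08, median 1.91, n = 10). Every Del_1-265 library lay above both libraries without dox in these 6 pairs. The 7 divergent pairs had 1.04 in Full-length, 0.95 without dox, 1.14 in Del_1-265 and 1.19 in Y226A-F228A. Since 4 of the 6 convergent pairs use the single peak split between FOR_519 and REV_520, the classes were formed again with 1 changed letter allowed. This gave 21 convergent, 18 divergent, 41 tandem and 76 undetermined members. As the classes were formed with values known, they are described here without a test. In 2 fragments, FOR_122 and FOR_583, a further peak had changed letters on the other strand. With the changed letter looked for in every peak, these 2 were undetermined, and 19 convergent and 17 divergent pairs were left.

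The 21 convergent pairs had an enrichment of 1.52 ± 0.18 in Full-length (SD, n = 14; 1.20 to 1.84, median 1.50). Without dox the 2 libraries had 0.59 and 0.63, and Y226A-F228A had 0.63 and 0.68. Del_1-265 had 0.74 ± 0.094 (SD, n = 10; 0.61 to 0.87, median 0.77), overlapping the libraries without dox. All of these libraries lay below every Full-length library. Over the 19 pairs left with the letter looked for in every peak, Full-length had 1.27 to 1.90, and these libraries 0.60 to 0.89. Full-length_low_expression had 1.21 and 1.37, within the Full-length range, and so did Del_13-33 with 1.57 ± 0.23 (SD, n = 10; 1.18 to 1.88) apart from its extremes. The 7 untreated parental libraries were the highest, at 1.86 ± 0.20 (1.64 to 2.23). Of the 10 lines called over all members, all 10 had every library below Full-length in the convergent class, with differences of -0.91 to -0.36 (within runs -1.01 to -0.28). Of the 10 lines not called, none did. These 21 pairs are part of the sum over which the lines were called, so that this split is not independent of the calls.

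In the 18 divergent pairs enrichment was 0.83 ± 0.13 in Full-length, 0.76 without dox, 0.91 in Del_1-265 and 0.85 in Y226A-F228A. None of the 10 called lines had all libraries below Full-length there, and their differences ranged from -0.31 to 0.11. Of the 10 lines not called, 2 did, Del_1-88 (difference -0.44) and Sumoylation_deficient_2 (-0.27). Over the 17 pairs left with the letter looked for in every peak, enrichment was 0.68 in Full-length, 0.61 without dox, 0.80 in Del_1-265 and 0.74 in Y226A-F228A. The 41 tandem pairs had an enrichment of 0.72 in Full-length, 0.69 without dox, 0.60 in Del_1-265 and 0.72 in Y226A-F228A. The 10 called lines differed from Full-length by -0.18 to 0.086 in tandem pairs, none with all libraries below it. In the undetermined pairs all 10 were lower on average, by -0.22 to -0.066, and 3 had every library below Full-length. The lower contacts of the called lines were thus not confined to convergent pairs. With exact letters, 2 of the 16 strong pairs were convergent, 1 divergent, 0 tandem and 13 undetermined. With 1 changed letter allowed, 8 of the 16 were convergent (50.0%, against 13.5% of all members), 2 divergent, 2 tandem and 4 undetermined. The larger convergent share therefore rests on the classes formed with values known. The tandem ones include FOR_1147 x REV_1464, whose class is uncertain, as described with the named pairs. The 13 convergent pairs outside the strong set had 0.55 in Full-length (0.24 to 0.79), -0.073 and 0.074 without dox, 0.17 in Del_1-265 (-0.11 to 0.58) and 0.52 in Del_13-33 (0.13 to 0.89). Among the 10 called lines, all libraries of 2, Full-length without dox and N/C-term-swap, were below Full-length over these 13 pairs.

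**Figure D2:**
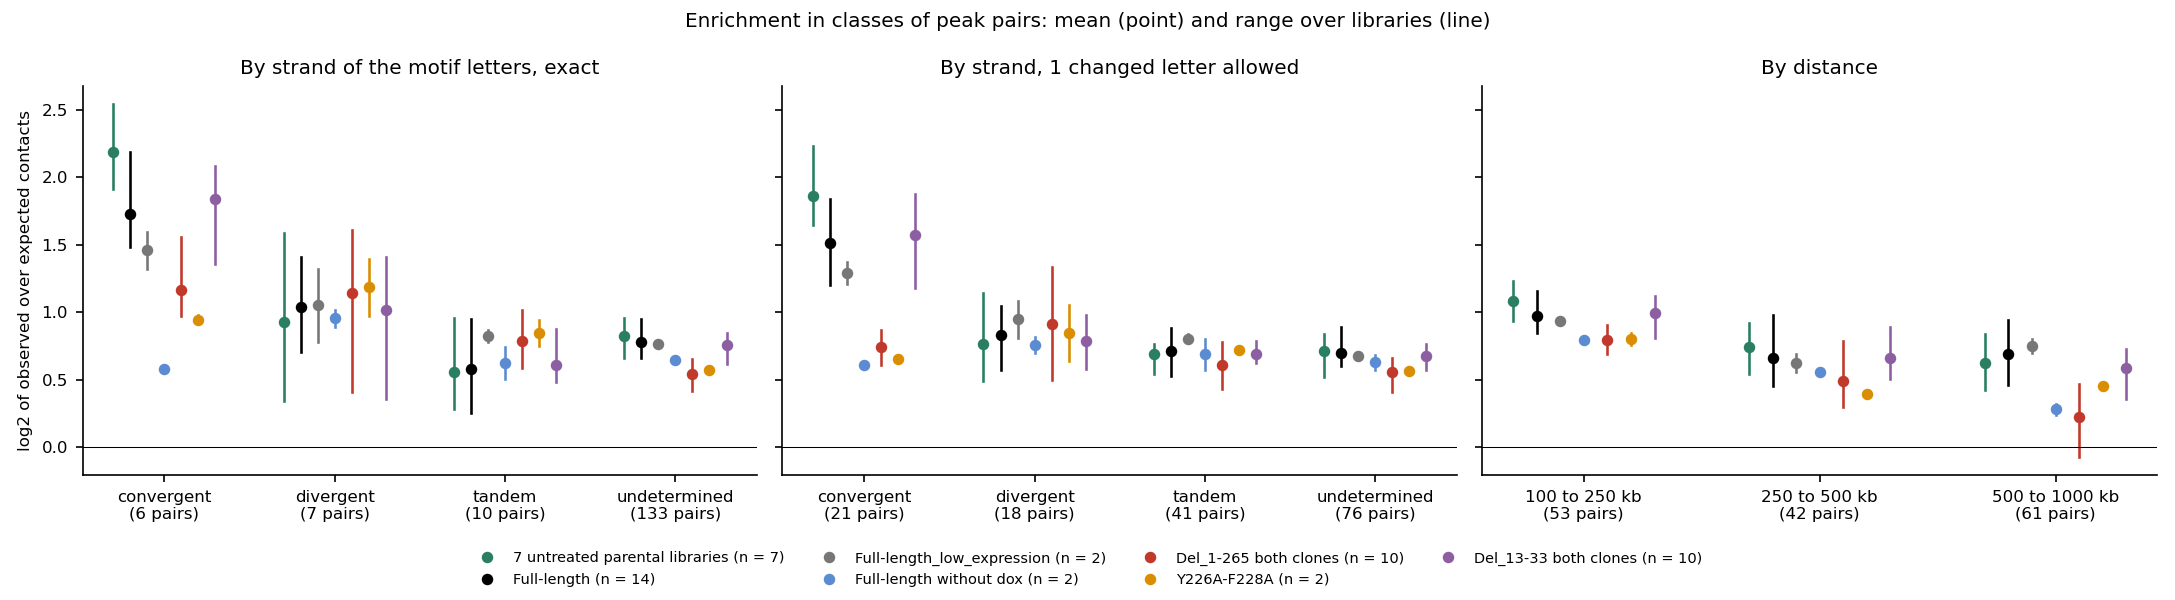
Enrichment (log2 of observed over expected contacts) in classes of peak pairs, by motif strand with exact letters (left), with 1 changed letter allowed (middle) and by distance (right), with the mean as a point and the range over libraries as a line. In the 21 convergent pairs of the middle panel the libraries without dox, of Del_1-265 and of Y226A-F228A sit between 0.59 and 0.87, below the Full-length range of 1.20 to 1.84, while in divergent and tandem pairs the ranges overlap.

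The 8 named pairs are those with the highest mean observed over expected in the 7 untreated parental libraries, with no fragment used more than 2 times. Their parental values can be raised by that choice and are not an even comparison with the other groups. With 1 changed letter allowed, 6 of them were convergent, 1 tandem (with an uncertain strand, see FOR_1147 below) and 1 divergent (undetermined with the letter looked for in every peak). The highest, FOR_546 with REV_520, joins the Chic1 peak to the one in 4930519F16Rik over 105 kb. Its observed over expected was 8.48 ± 1.75 in the parental libraries (n = 7) and 4.97 ± 1.12 in Full-length (n = 14; 3.34 to 8.05, median 4.76). Full-length_low_expression gave 3.56 and 4.29. Without dox it was 1.50 and 1.81, in Y226A-F228A 2.13 and 2.31, and in Del_1-265 2.48 to 3.28 (median 2.78, n = 10), all below every Full-length library. Every Del_1-265 library lay above both libraries without dox. Del_13-33 had 3.61 to 6.96 (median 5.20, n = 10). With a median of 1060.5 raw counts in Full-length (12 complete matrices), it is the best covered of the 8.

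FOR_577 with REV_520 joins the same 4930519F16Rik peak to a Tsix peak 176 kb away. Full-length libraries had 3.68 to 6.40 (median 4.75, n = 14), those without dox 2.03 and 2.73, Y226A-F228A 2.43 and 2.93, and Del_1-265 2.37 to 4.40 (median 2.69, n = 10). The groups were apart without dox and in Y226A-F228A, and overlapped in Del_1-265. FOR_519 with REV_576 (180 kb) uses the other fragment of the split peak and the second Tsix peak. It had 3.65 to 6.20 in Full-length (median 4.40), 2.32 and 2.46 without dox, 1.69 and 1.94 in Y226A-F228A, and 1.09 to 3.23 in Del_1-265 (median 1.90), with no overlap with Full-length in any of these.

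The long pairs from FOR_1216 had medians near the level of controls in Del_1-265, with single libraries down to 0. FOR_1216 with REV_1464 (747 kb) had 2.32 to 10.6 in Full-length (median 5.87), 0 to 4.88 in Del_1-265 (median 0.65) and 2.63 to 11.7 in Del_13-33 (median 6.36). Without dox it was 0.90 and 3.94, and in Y226A-F228A 0.91 and 2.89. FOR_1216 with REV_1521 (908 kb) had 1.90 to 11.4 in Full-length (median 3.72), 0 to 2.98 in Del_1-265 (median 1.13), 1.34 and 1.55 without dox, and 0.12 and 0.68 in Y226A-F228A. These pairs had median raw counts of 74.5 and 32 in Full-length, and their spread between libraries was wide. FOR_1216 is also the shortest peak fragment, with 310 bases. FOR_168 with REV_252 (262 kb), near Cited1 and in Hdac8, had 1.65 to 7.86 in Full-length (median 4.56), 1.95 and 3.14 without dox, and 1.39 to 4.68 in Del_1-265 (median 1.91), overlapping Full-length.

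The divergent pair gave overlapping values. FOR_122 with REV_40 (271 kb), whose exact motif letters point away from each other, had 3.26 to 6.47 in Full-length (median 4.36, n = 14), 3.55 and 4.72 without dox, 1.80 to 5.87 in Del_1-265 (median 4.04) and 3.47 and 3.86 in Y226A-F228A. All of these overlapped. FOR_1147 with REV_1464 (945 kb, tandem) had 0.94 to 7.62 in Full-length (median 4.84), 1.21 and 1.71 without dox, 2.06 to 5.67 in Del_1-265 (median 3.52) and 4.95 and 8.32 in Y226A-F228A, which again overlapped Full-length. Its class is uncertain. The changed match that set the minus strand of FOR_1147 (chrX:102265719-102265730) lay away from the offset at which most matches lay in their peaks. With a plus strand there the pair would be convergent.

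**Figure D3:**
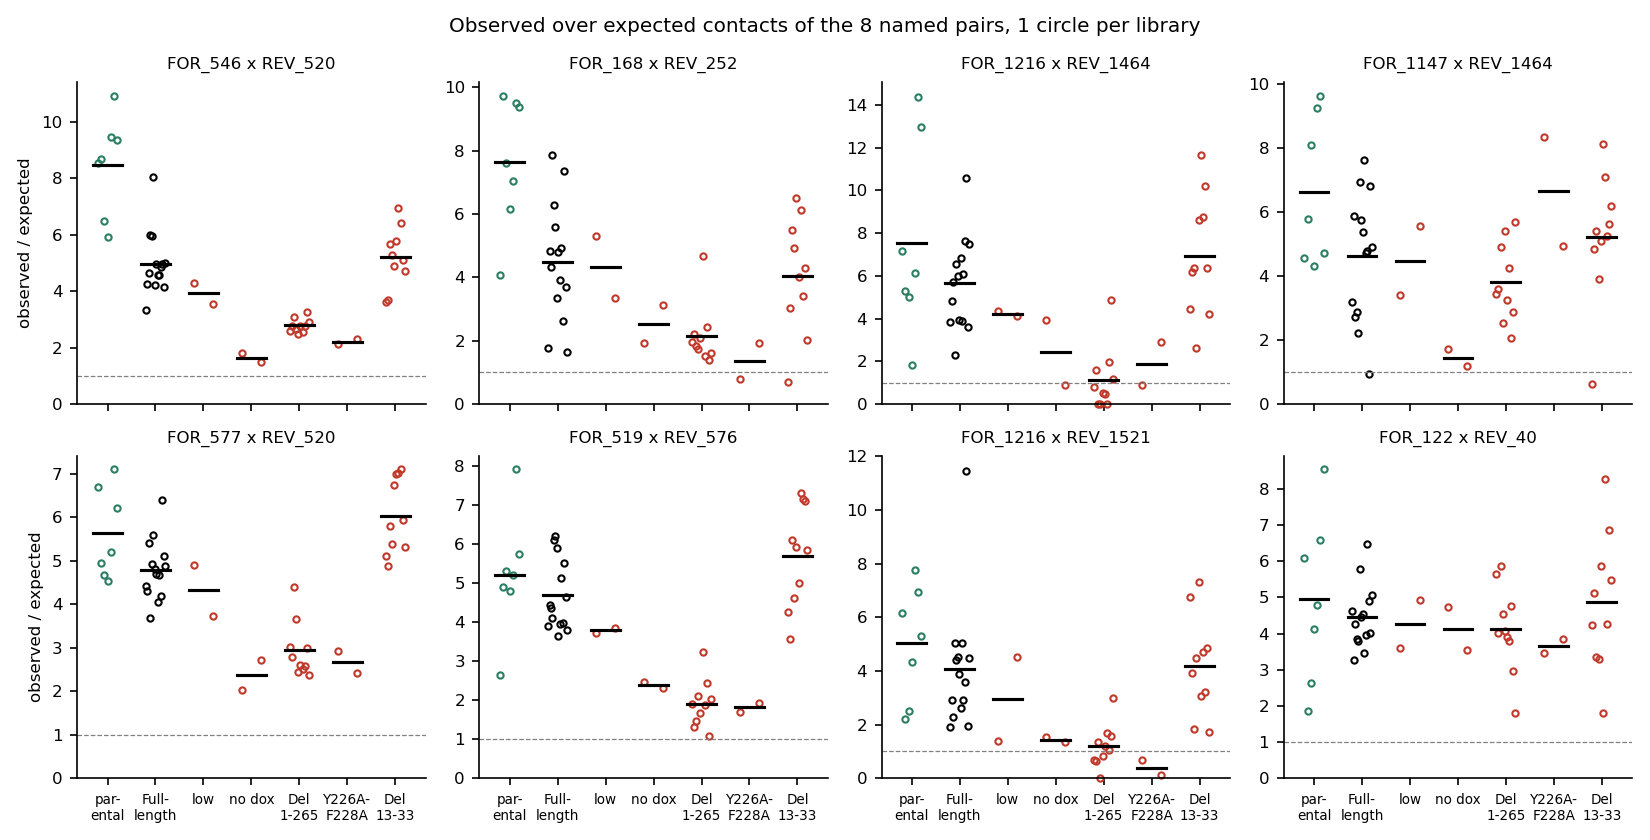
Observed over expected contacts of the 8 named pairs, 1 circle per library with a bar at the mean, in parental (n = 7), Full-length (14), low expression (2), no dox (2), Del_1-265 (10), Y226A-F228A (2) and Del_13-33 (10) libraries, with a dashed line at 1. The pairs were chosen by their parental values, which that choice can raise. Del_1-265 means are at 1.91 for FOR_519 x REV_576 and 1.14 for FOR_1216 x REV_1464, against 4.69 and 5.67 in Full-length, while FOR_122 x REV_40 stays between means of 3.66 and 4.95 throughout.

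Single pairs were tested with limma on log2 of the balanced value plus 1, with each library scaled to a sum of 1000000, in one fit over all transgene libraries, for 62772 pairs with a mean of at least 1, of which 152 were members. In Del_1-265, 15 of 152 members (9.87%) were called lower and 0 higher, against 1.06% of all pairs tested called lower and 0.0908% called higher (adjusted p under 0.05). The median log2 difference was -0.26 for members and -0.089 for all pairs. The largest were FOR_1216 x REV_1464 (-2.34 ± 0.28, SE), FOR_327 x REV_576 (-1.72 ± 0.30) and FOR_251 x REV_576 (-1.69 ± 0.22). By orientation with 1 changed letter allowed, 9 of 21 convergent members were called lower, 0 of 18 divergent, 5 of 40 tandem and 1 of 73 undetermined.

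In Y226A-F228A, 8 members (5.26%) were called lower and 0 higher, against 0.454% of all pairs lower and 0.0223% higher. The median difference was -0.23 for members and -0.043 for all pairs. Of the 8, 5 were convergent, 1 tandem and 2 undetermined, among them FOR_1216 x REV_1521 (-2.08 ± 0.43, SE) and FOR_593 x REV_738 (-1.75 ± 0.31). Without dox, 2 members were called lower against 0.0159% of all pairs, FOR_546 x REV_520 (-1.49 ± 0.17) and FOR_577 x REV_520 (-0.96 ± 0.16), and no pair was called higher. In Del_13-33 the median difference was -0.14 for members and -0.091 for all pairs, and 71.7% of members against 62.7% of all pairs had a negative difference. In Full-length_low_expression and in Del_13-33, 0 of all pairs were called by limma. At an unadjusted p under 0.05 there were 2 members of 1111 pairs in the former and 11 members of 4593 pairs in the latter, and edgeR on raw counts called no member in either.

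Overlap between libraries was counted without a model. In Del_1-265, 4 members (2.56%) had every library below every Full-length library, against 0.0225% of all 71146 measured pairs. The share was 8.97% of members against 1.66% in Y226A-F228A (14 members), 7.05% against 1.02% without dox (11) and 0.641% against 0.294% in Full-length_low_expression (1). In Del_13-33 there was no such member and no such pair. In the other direction, 6 members (3.85%) without dox and 5 (3.21%) in Y226A-F228A had every library above Full-length, against 1.63% and 2.30% of all pairs, and none did in Del_1-265 or Del_13-33.

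By the sign of the mean alone, 97 of 156 members (62.2%) were lower than Full-length in Del_1-265, against 50.2% of all pairs. It was 96 (61.5%) against 52.3% in Y226A-F228A, 93 (59.6%) against 51.0% without dox and 91 (58.3%) against 50.8% in Full-length_low_expression. In Del_13-33 it was 83 (53.2%), near the 53.6% of all pairs. Among the 21 convergent members, 19 were lower in Del_1-265, 18 without dox, 17 in Y226A-F228A, 15 in Full-length_low_expression and 11 in Del_13-33.

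**Figure D4:**
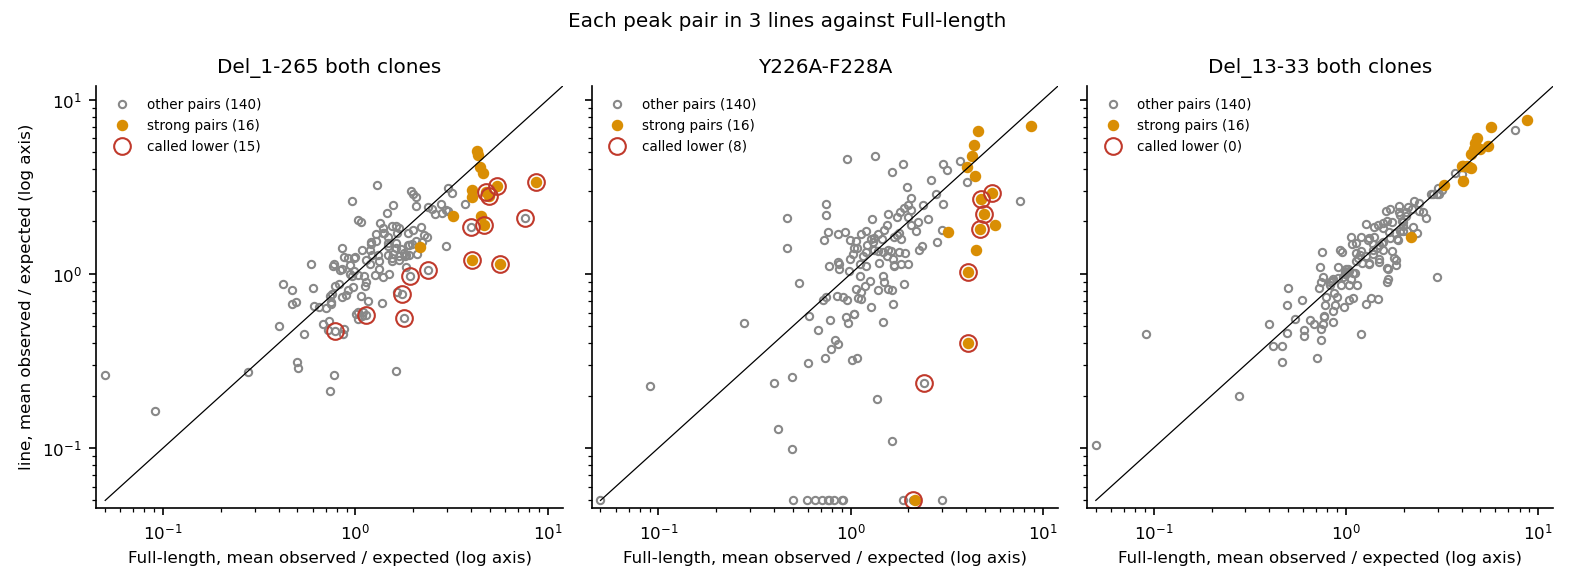
Mean observed over expected of each of the 156 peak pairs in Full-length (horizontal, log axis) against Del_1-265, Y226A-F228A and Del_13-33 (vertical, log axis), with values under 0.05 drawn at 0.05, the diagonal of equal values, the 16 strong pairs filled and the members called lower by limma ringed. The 15 rings of Del_1-265 and 8 of Y226A-F228A lie below the diagonal, and Del_13-33 has none.

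By distance, the 53 members of 100 to 250 kb had a mean enrichment of 0.97 in Full-length, 0.79 without dox, 0.79 in Del_1-265 and 0.80 in Y226A-F228A. The 61 members of 500 to 1000 kb had 0.69 in Full-length (0.46 to 0.94, n = 14), 0.24 and 0.32 without dox, and 0.23 in Del_1-265 (-0.076 to 0.47, n = 10). The 42 members of 250 to 500 kb had 0.66 in Full-length (0.45 to 0.98), 0.54 and 0.57 without dox, 0.49 in Del_1-265 (0.30 to 0.79), and 0.37 and 0.41 in Y226A-F228A, the last below every Full-length library. At 500 to 1000 kb Y226A-F228A had 0.43 and 0.47, partly inside the Full-length range. The libraries without dox lay below Full-length at long range, and those of Del_1-265 overlapped it narrowly.

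Members that cross a domain boundary stayed enriched. Of the 156 members, 97 span at least 1 of the 6 boundary positions of the study and 59 span none. In Full-length the first had an enrichment of 0.90 and the second 0.81, whereas pairs without peaks had -0.26 when they spanned a boundary and 0.16 when they did not. Without dox the members had 0.76 and 0.54, and the pairs without peaks -0.14 and 0.09.

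The 5 leading anchors, the peak fragments with the highest mean observed over expected over at least 5 member pairs in parental libraries, were REV_1464, REV_520, REV_576, FOR_1216 and REV_1466. The 5 pairs of REV_576, the Tsix anchor, averaged 3.58 to 6.19 in Full-length (median 4.67, n = 14), 0.98 to 2.34 in Del_1-265 (median 1.96, n = 10), 2.44 and 2.93 in Y226A-F228A, and 2.88 and 3.06 without dox, all without overlap with Full-length. Here every Del_1-265 library lay below both libraries without dox. The 7 pairs of FOR_1216 averaged 1.97 to 4.26 in Full-length, 0.90 and 1.58 without dox, 0.64 and 1.39 in Y226A-F228A, and 0.89 to 2.49 in Del_1-265. The 6 pairs of REV_1466, whose exact letters lie on the plus strand, averaged 1.96 to 3.07 in Full-length and 1.64 to 2.88 in Del_1-265, which overlapped.

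In untreated cells with endogenous CTCF, the deletion of 13-33 left contacts between peak fragments within the spread of libraries. WT parental cells had an enrichment of 0.96 (0.89, 0.98 and 1.00) and the untagged deletion clones 0.98 (0.86 to 1.10, n = 7), a difference of 0.019 (p = 0.833, adjusted p = 0.833, exact permutation test). CTCF-AID cells had 0.92 (0.80, 0.81, 1.00 and 1.08) and the tagged deletion clones 0.96 (0.83 to 1.08, n = 8), a difference of 0.034 (p = 0.602, adjusted p = 0.833, exact permutation test). Within runs these differences were -0.010 and 0.034. The effects in the 2 backgrounds differed by -0.015 (p = 0.860, exact permutation of the genotypes within backgrounds). CTCF-AID differed from WT parental by -0.034 (-0.062 within runs, -0.087 to 0.0065 with 1 library left out), where 4 against 3 libraries cannot reach p under 0.0571, and Full-length cells from CTCF-AID by -0.066 (p = 0.258, adjusted p = 0.833, exact permutation test). None of these 4 comparisons had an unadjusted p under 0.05 in the exact permutation test, and none with the run as a block (p = 0.76, 0.32, 0.222 and 0.444, exact permutation tests in the order given).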

How the data were processed

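5C had been performed on 91 libraries. Bowtie2 and SAMtools are named in the submitters' processing notes without their roles. The raw matrices deposited by the authors hold whole-number counts per primer pair. The balanced matrices deposited by the authors hold a signal, read counts after iterative correction per fragment (mm9) scaled to a fixed total. Of these, 78 are symmetric and 13 one-sided, and each was used on its forward by reverse side, rescaled to a sum of 1000000. The FLAG peak list was made by the authors from peaks shared by both libraries of the assay.

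From these, pairs were grouped by distance in steps of 20 kb, expected values were means of pairs without peaks, and enrichment was computed per library (Python 3.11.15, NumPy 2.4.6, pandas 2.3.3). Groups, taken from the labels, were compared over libraries by two-sided exact permutation tests (100000 resamples with 10 libraries or more in both groups, seed 11), adjusted by Benjamini-Hochberg within each family. Single pairs were tested with limma 3.58.1 in R 4.3.3 (trend, pseudocount 1, mean of at least 1, adjusted p 0.05), with differences on the log2(value + 1) scale, which understates changes of low pairs. The alternative was edgeR 4.0.16 on raw counts, from the 82 complete matrices (9 were incomplete). Depth was 3631870 to 23419010 counts (median 11971070), and reads carry no molecular identifiers. Tested on simulated data for Del_1-265 against Full-length (62772 pairs), limma recovered 74% of 100 pairs lowered by 1 and 97% of 100 lowered by 2 on the log2 scale, with 7 false calls. The changed pairs were drawn only from pairs with higher mean values in Full-length. Recovery was not measured for members separately, whose median balanced value was 5.41 at a sum of 1000000. The percentages therefore do not give the power for a typical member or for a typical tested pair. Named pairs were the 8 with the highest mean observed over expected in the 7 untreated parental libraries, no fragment in more than 2, and named anchors the 5 highest fragments with at least 5 pairs. Other pairs in the text were the largest called changes. Runs of consecutive library numbers, taken from the labels, served as batches. Equal replicate numbers were not treated as pairs, since in no line did all equal-numbered libraries deviate together with a correlation over 0.1. The members and lists were chosen with earlier results of these data known. No column of per-sample values was left without a sample (0).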

Additional observations from a re-analysis of the deposited data

Results flagged for a closer look

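Dixon's criterion was applied to 80 sets of values from groups of 4 to 10 libraries. These were the named pairs and the enrichments of members and of strong pairs. In 5 sets, all of named pairs, 1 library lay far from the others, where chance gives about 1 in 20. In Del_1-265 clone 1, replicate 4 had an observed over expected of 4.68 for FOR_168 x REV_252 (the others 1.39 to 2.22), and replicate 5 had 4.88 for FOR_1216 x REV_1464 (the others 0.48 to 1.59). In Del_1-265 clone 2, replicate 4 had 1.97 for FOR_1216 x REV_1464, while the other libraries were at 0. The same pair had 14.02 in replicate 3 of the endogenous Del_13-33-AID clone 1 (the others 4.99 to 6.37). FOR_122 x REV_40 had 5.72 in replicate 4 of the endogenous Delta(13-33) clone 2 (the others 3.62 to 3.96). The cause of these values was not tested.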

How the results depend on the processing

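Of the results that answer a comparison, 460 values under the alternatives were taken as unchanged and 36 changed direction. Another 26 lost the threshold or fell as counts, 2 gained it or rose as counts, and 9 moved beyond the spread. Unchanged means the same direction and side of the threshold. Where no test could pass, it means a move within the spread of Full-length libraries. For counts a limited change was allowed, such as 10 lines becoming 7 or 8. The alternatives chosen after seeing the data were the control within 40 kb, leaving out the 16 strong pairs, and the changed motif letter, also by peak. The number of lines called lower over all members was 10, and became 0 with the mean of log2 per pair (5 with an unadjusted p under 0.05), 2 of 16 with raw counts, 1 at 200 to 600 kb, 7 with the peak's midpoint in the fragment, 2 of 4 testable with the run as a block, 8 with the control within 40 kb and 0 without the strong pairs. Over the strong pairs it was 11, 9 to 11 under the other alternatives, and 2 of 4 testable with the run as a block.

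With the mean of log2 per pair, differences from Full-length were -0.14 without dox, -0.19 and -0.20 in the Del_1-265 clones and -0.089 in Y226A-F228A, none past the threshold, and changed sign in Del_576-614 (-0.037), Sumoylation_deficient_2 (-0.053, strong pairs -0.037), Del_1-31 clone 2 (0.067, strong pairs 0.025), Del_13-33 clone 1 (0.0057, strong pairs -0.054) and the untagged endogenous deletion (-0.030). With raw counts, where no dox is 1 library and Mut_Parylation and both sumoylation lines have none, Y226A-F228A had -0.42 and did not pass, Full-length_low_expression 0.0036, Del_1-265 against no dox -0.23, Del_1-265 against low expression -0.41, which passed, Y226A-F228A against Del_1-265 -0.0076, and strong pairs of Del_13-33 clone 1 -0.051. At 200 to 600 kb, no dox (-0.10, strong pairs -0.51), Del_1-265 clone 1 (-0.12) and Y226A-F228A (-0.20) no longer passed, and signs changed in Sumoylation_deficient_2 (-0.0071), low expression (0.056), the endogenous deletion untagged (-0.022) and tagged (-0.013), Y226A-F228A against Del_1-265 (-0.037), and strong pairs of Del_576-614 (0.011), Sumoylation_deficient_1 (0.093) and Del_13-33 clone 1 (-0.16). With the peak's midpoint, Y226A-F228A had -0.15 and did not pass, low expression 0.013 and strong pairs of Del_13-33 clone 1 -0.0019. The last was -0.00048 over pairs measured in each library, -0.00010 with expected values from all pairs and -0.0077 with the run as a block, which gave -0.010 for the untagged endogenous deletion. With the control within 40 kb, Del_13-33 clone 1 had 0.0056 and Del_1-265 against no dox 0.030. Without the strong pairs, no dox (-0.031), the Del_1-265 clones (-0.11 and -0.089) and Y226A-F228A (-0.073) no longer passed, and signs changed in Del_1-88 (0.00094), low expression (0.011), Del_1-31 clone 2 (0.0044), Del_13-33 clone 2 (-0.011) and Full-length against CTCF-AID (0.011). The cause of these changes was not tested.

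The replicate numbers are shared between lines but did not pair the libraries. With the replicate number as a block, differences over all members and over strong pairs were -0.095 and -0.49 without dox, 0.084 and 0.13 in low expression, -0.093 and -0.30 in Del_1-265 clone 2, and -0.10 and -0.36 in Y226A-F228A. Members called lower were then 5 in Y226A-F228A, and 370 of all pairs were called lower in Del_1-265.

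Members called lower without dox were 4 with a pseudocount of 0.25 and 0 with edgeR under either normalization, where the no-dox arm is 1 library assumed to vary like the others, and in Del_1-265 they were 10 with edgeR's TMM and 8 with relative log expression size factors. All pairs called lower in Del_1-265 were 136 and 98 with edgeR, and in Y226A-F228A 733 with a pseudocount of 0.25 and 110 with the run as a block. Pairs called higher in Del_1-265 were 32 with that pseudocount, 34 with the replicate block, and 7 and 10 with edgeR.

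Leaving out 1 library at a time gave -0.068 to 0.026 for the difference of the endogenous deletion effects, -0.035 to 0.072 for Del_576-614 (strong pairs -0.18 to 0.093), -0.021 to 0.041 for Y226A-F228A against Del_1-265, -0.0064 to 0.087 and -0.013 to 0.041 for the tagged and untagged endogenous deletion, -0.087 to 0.0065 for CTCF-AID against WT parental, and -0.042 to 0.057 for the strong pairs of Del_13-33 clone 1. Members called lower were then 1 to 2 without dox and 5 to 6 in Y226A-F228A. For lines with 2 libraries these are values without a test. Depth limits single pairs, with medians of 32 to 96 raw counts for 5 of the 8 named pairs in Full-length.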
